A study of Mus musculus with 6 samples.

Results

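The mitochondrial ribosomal protein genes are the nuclear genes that code for the protein shell of the ribosome inside mitochondria. They were taken from the gene count files by name: every protein-coding row whose identifier maps to a symbol starting with Mrpl (named for the large subunit) or Mrps (named for the small subunit) and a digit in the GRCm38 mouse annotation, without processed pseudogenes. This gave 78 genes of 52550 mouse gene rows, 49 of them Mrpl and 29 Mrps. Of these, 77 had enough reads to be tested and 1, Mrpl53, did not.

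The genes were followed in whole hearts of mice at postnatal day 7, in 3 libraries of hearts with a cardiomyocyte-specific deletion of the glucocorticoid receptor (GR-cKO) and 3 of controls. The study asked what loss of this receptor, the product of Nr3c1, does to gene expression in the early postnatal heart. The labels name each library a biological replicate, but not the driver of Cre recombinase, the exon that was removed or what genotype the controls had. Because RNA came from the whole heart, cells in which the receptor was not targeted contributed to every value, and fewer cells of a type and less RNA per cell cannot be told apart. Libraries were 3′ tag libraries (QuantSeq), in which a read count follows the number of polyadenylated transcripts and not their length. Levels of different genes can thus be set side by side, with limits. Overlapping genes, pseudogene copies and 3′ ends outside the counted exons can make a count uncertain.

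Mitochondria translate only the few proteins encoded in their own genome, all of them subunits of the respiratory chain and ATP synthase, with a ribosome that is descended from the bacterial one. Its ribosomal RNAs come from mitochondrial DNA, while every protein is made in the cytosol from nuclear genes and imported. Many of these proteins have bacterial counterparts, and others exist only in mitochondria. The heart depends on oxidative phosphorylation from shortly after birth, and in humans mutations of several of these genes cause cardiomyopathy.

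Libraries held between 18135540 and 22999192 reads, of which 1.63% to 2.01% were spike-in transcripts. Nr3c1 was at 57.6, 49.2 and 56.2 CPM (reads scaled to a common library size) in GR-cKO replicates 1 to 3 and at 114, 131 and 99.7 CPM in the control replicates, and the groups did not overlap. Its log2 fold change, GR-cKO over control, was -1.08 (SE 0.125, adjusted p = 0.00101, edgeR), and the reads do not show which exon is missing. All 10 cardiomyocyte markers were expressed, with summed levels of 88341, 76892 and 93712 CPM in the GR-cKO libraries and 82382, 70186 and 81494 CPM in the controls. By their reads of Xist and of Y-linked genes, replicate 1 of each group was called female and the other libraries male.

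No mitochondrial ribosomal protein gene differed between the genotypes beyond the test's threshold. Of the 77 tested, 0 had an adjusted p under 0.05 (edgeR quasi-likelihood test, Benjamini-Hochberg over 14860 genes), where the share called among all tested genes was 0.00673%, a single gene, Nr3c1. At an unadjusted p under 0.05 the count of members was also 0, against 4.2% of all tested genes, and DESeq2 and limma voom likewise gave 0 by either measure. The smallest unadjusted p of a member was 0.0588, with an adjusted p of 0.998 (edgeR). Fitted log2 fold changes had a median of -0.05 over the members and 0.01 over all tested genes, with 29 members higher and 48 lower in GR-cKO. The quartiles were -0.15 and 0.04 over the members and -0.15 and 0.15 over all tested genes, of which 7619 were higher and 7241 lower. The split of the members depended on scaling, since 38 members were lower when libraries were scaled to spike-in reads and 58 when scaled to library totals.

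The precision behind these values was high for most members. The median SE of a member's log2 fold change was 0.130, and 0.207 over all tested genes. For 67 of the 77 members the 95% interval of the fold change lay wholly within 1.5-fold in both directions, against 47.8% of all tested genes. Among genes with a mean of at least 5 CPM the counts were 67 of 74 members and 7096 of 10231 genes. Within 1.25-fold the interval held 25 of 77 members, against 9.71% of all tested genes. A 1.5-fold difference between the genotypes thus lay outside the 95% interval of those 67 members, 45 of them Mrpl and 22 Mrps genes.

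**Figure D1:**
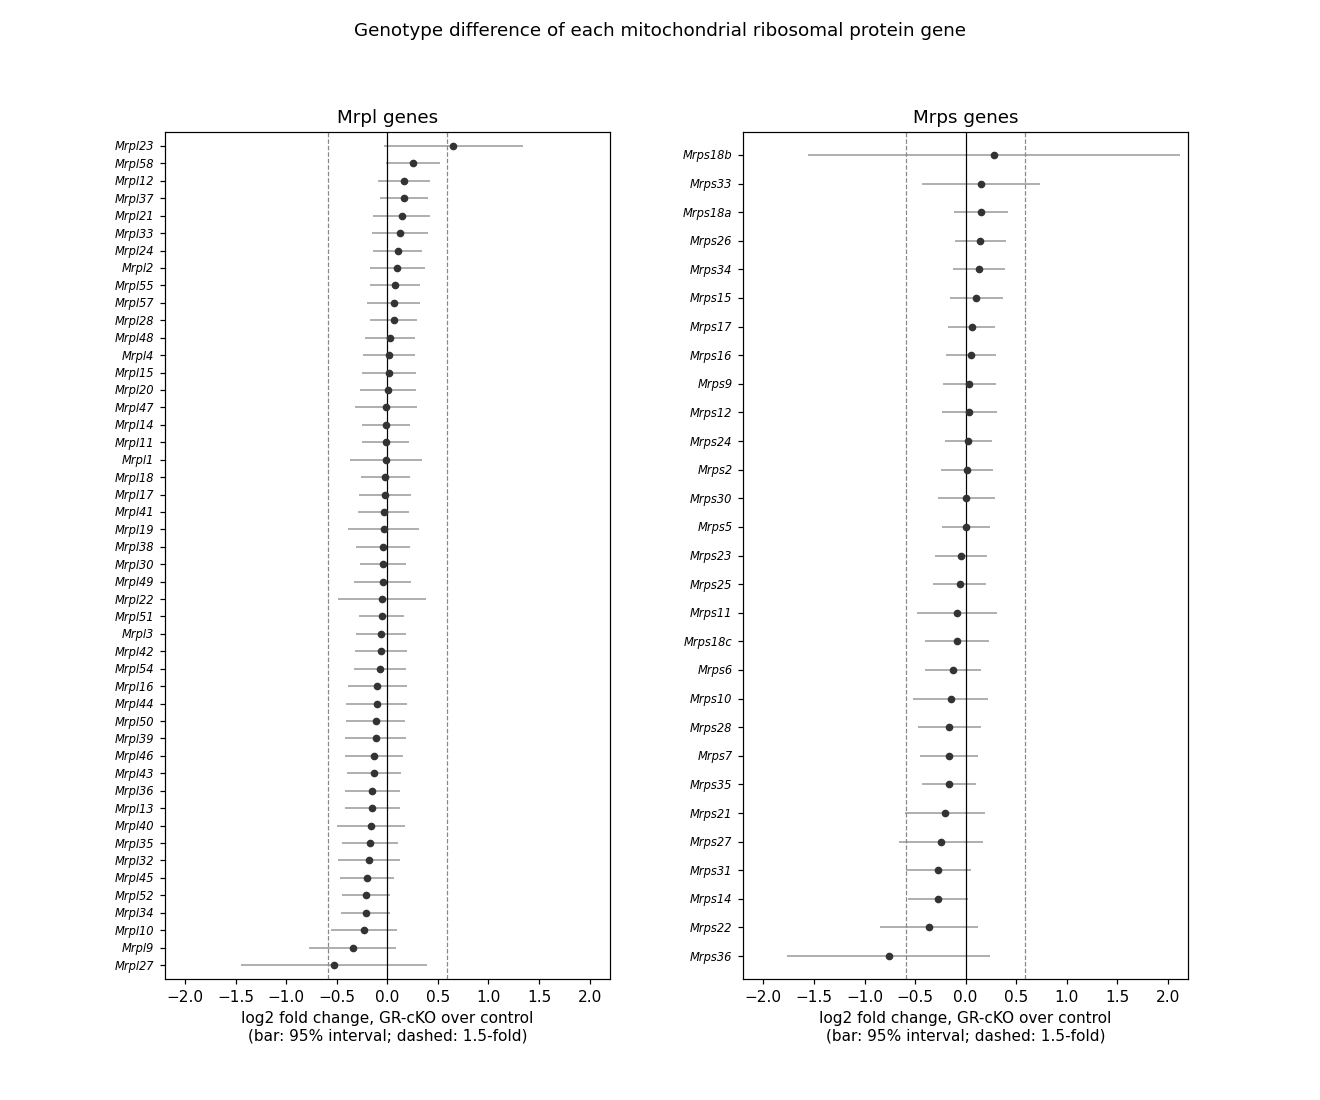
Log2 fold change (GR-cKO over control, horizontal axis) of each of the 77 tested genes, Mrpl left and Mrps right, sorted by value, with points for the fitted values, bars for 95% intervals from edgeR and dashed lines at 1.5-fold. Most intervals lie between the dashed lines, and the widest belong to the genes with the fewest reads, Mrps18b, Mrps36 and Mrpl23, and to Mrpl27.

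Of the Mrpl genes, 48 were tested, 15 of them higher and 33 lower in GR-cKO, and their median log2 fold change was -0.04. Of the 29 Mrps genes 14 were higher and 15 lower, with a median of -0.05. Names and places in the ribosome differ for 3 members, since the proteins of Mrps18a and Mrps30 sit in the large subunit and that of Mrps36 in neither. By place, 17 of 50 tested large subunit genes were higher and 33 lower, with a median of -0.04, and 12 of 26 small subunit genes were higher and 14 lower, with a median of -0.05. Grouped by origin, the 46 tested members with a bacterial counterpart had a median of -0.02 and the 30 tested mitochondria-specific members of the ribosome had -0.06. None of these groups held a gene past the threshold.

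Levels of the members covered a wide range with most of them in its middle. Over the 6 libraries 61 members averaged 20 to 150 CPM, 7 were above that, 10 were under 20 CPM and 4 of those were under 5 CPM. The median member was at 56.1 CPM. The 10 highest members held 33.5% of all member CPM.

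Mrpl12 was the most abundant member. It encodes the stalk protein of the large subunit, the only one present in several copies per ribosome, which contacts translation factors and has also been reported to bind the mitochondrial RNA polymerase. Mrpl12 (chr11:120484613-120489065, plus strand, GRCm38) was at 304, 341 and 407 CPM in GR-cKO hearts and at 331, 305 and 303 CPM in controls. Its mean over all libraries was 5.91 times that of the median member. The GR-cKO value of replicate 3 was above every other library, while the other values of the groups overlapped, and the log2 fold change of 0.16 (SE 0.121, adjusted p = 0.998, edgeR) was 0.04 without that library.

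Below Mrpl12, the next large subunit genes were Mrpl30 and Mrpl33, which code for core proteins with bacterial counterparts. Mrpl30 was at 204, 195 and 204 CPM in GR-cKO hearts and 200, 217 and 205 CPM in controls, and the groups overlapped throughout. Mrpl33 was at 162, 166 and 226 CPM in GR-cKO hearts and 162, 171 and 175 CPM in controls, with 1 high value in GR-cKO replicate 3. The most abundant small subunit genes were Mrps24, Mrps23 and Mrps6. Mrps24 averaged 158 ± 8.80 CPM in GR-cKO and 155 ± 3.15 CPM in control hearts, and Mrps23 averaged 142 ± 11.3 CPM in GR-cKO and 147 ± 18.6 CPM in control hearts (SD, n = 3 each). Mrps6 averaged 104 ± 17.5 CPM in GR-cKO and 113 ± 11.04 CPM in control hearts. For none of these 3 did the group means differ by more than the spread between hearts.

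**Figure D2:**
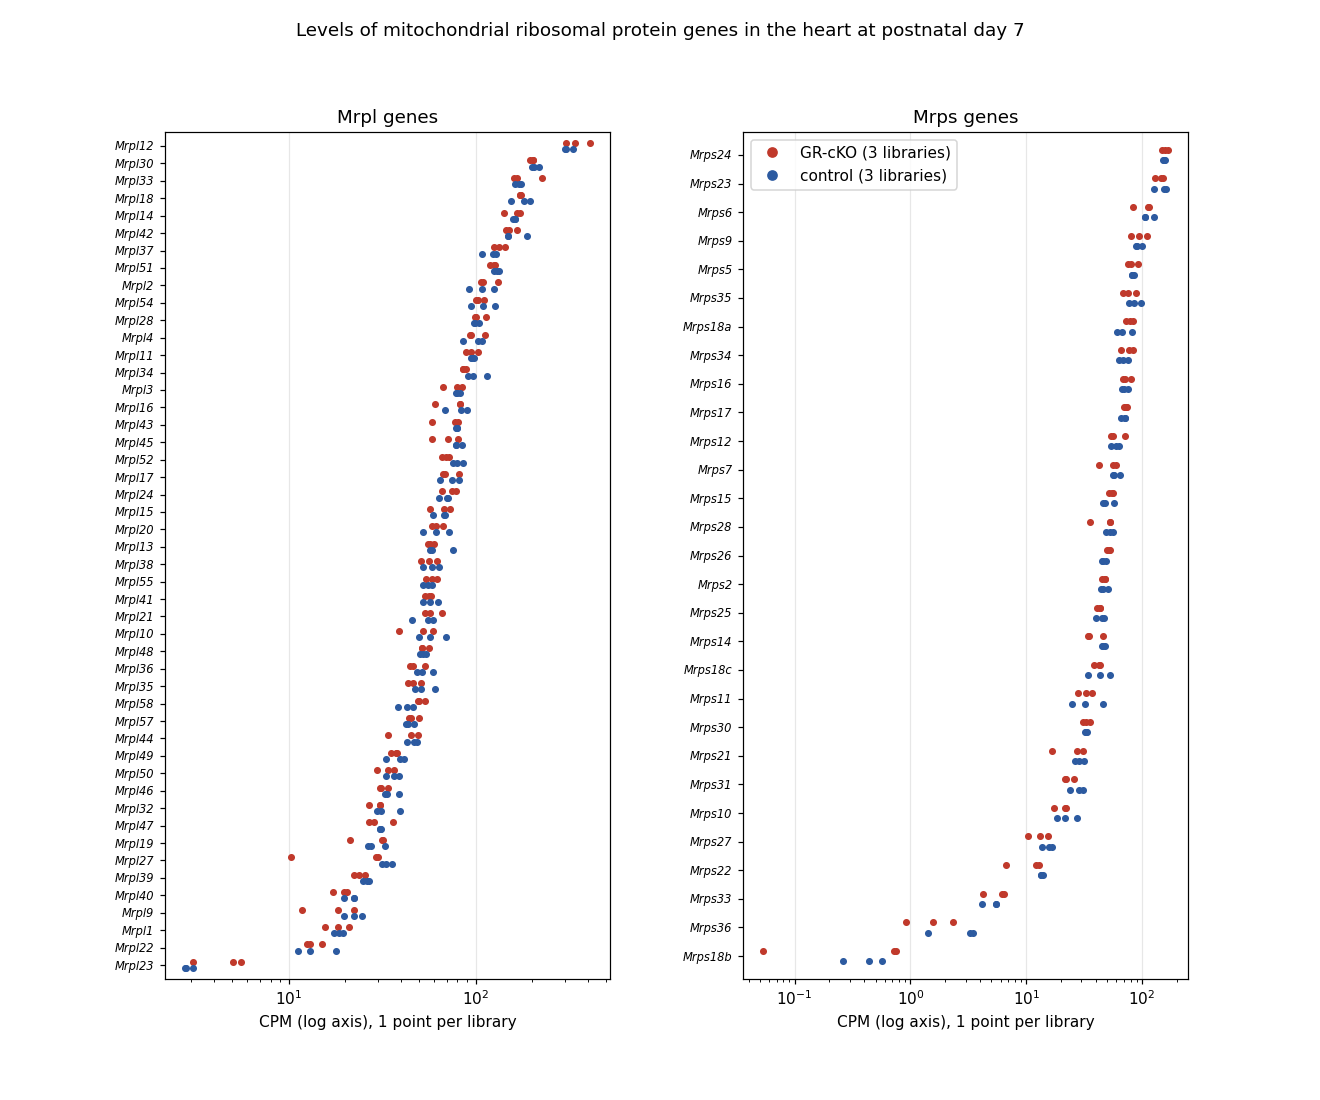
CPM of each tested gene on a log axis, 1 point per library, with GR-cKO points above control points in each row and genes sorted by their mean. Red and blue points lie on each other in nearly every row from Mrpl12, at 303 to 407 CPM, down to Mrpl23, and GR-cKO replicate 3 gives the isolated low points of Mrpl27, Mrps22 and Mrps18b.

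At the low end stood Mrpl1, the protein of the mobile stalk where used tRNAs leave, Mrpl22 and Mrpl23, which line the tunnel through which the new peptide leaves, and Mrps33, Mrps36 and Mrps18b. Mrpl23 (chr7:142532686-142540747, plus strand) was at 5.58, 5.05 and 3.07 CPM in GR-cKO hearts and at 2.80, 3.08 and 2.83 CPM in controls. Replicates 1 and 2 of GR-cKO were above all controls, and replicate 3 was level with control replicate 2. The log2 fold change was 0.65 (SE 0.329, adjusted p = 0.998, edgeR). A processed pseudogene, Mrpl23-ps1, had 407 reads in all, close in number to those of Mrpl23 itself, so the counts of Mrpl23 are uncertain where the counting could split reads between the copies.

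Mrps36 codes for a protein that was first listed with the small subunit and is now known as part of the oxoglutarate dehydrogenase complex of the citric acid cycle. It was at 1.56, 2.31 and 0.91 CPM in GR-cKO hearts and at 3.50, 3.24 and 1.42 CPM in controls, with overlap through the lowest control. The interval of its log2 fold change of -0.76 ran from -1.76 to 0.24, and the pseudogene Mrps36-ps2 had 240 reads. Mrps18b was at 0.73, 0.75 and 0.05 CPM in GR-cKO hearts and 0.44, 0.57 and 0.26 CPM in controls, 56 reads in all, and an antisense transcript, Gm16279, overlaps its last 500 bases. Mrpl53 had 1 read in all, in GR-cKO replicate 3. Whether the 3′ ends of Mrpl53 and Mrps18b lie outside the exons used for counting was not tested.

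The member with the smallest p was Mrpl58, also known as Ict1, a peptidyl-tRNA hydrolase built into the large subunit that can free stalled ribosomes. Mrpl58 (chr11:115403752-115412674, plus strand) was at 49.6, 49.4 and 53.5 CPM in GR-cKO hearts and at 43.0, 46.2 and 38.7 CPM in controls. All 3 GR-cKO libraries were above all 3 controls. This gave 0.25 on the log2 scale with an SE of 0.126, bounds of -0.01 and 0.52 for the 95% interval, and an adjusted p of 0.998 (edgeR).

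Mrps26, a mitochondria-specific protein of the small subunit, was the only other member with every GR-cKO library above every control. It averaged 51.6 ± 1.79 CPM in GR-cKO and 46.6 ± 1.81 CPM in control hearts (SD, n = 3 each). The lowest GR-cKO value was 49.6 CPM and the highest control value 48.6 CPM, and the log2 fold change was 0.14 (SE 0.120). These 2 members stand against 4.7% of all tested genes with the same ordering of libraries. Mrpl37, a mitochondria-specific large subunit protein, had means of 134 ± 8.68 CPM in GR-cKO and 120 ± 10.7 CPM in control hearts (SD, n = 3 each), and its groups overlapped. Mrps18a, whose protein sits in the large subunit despite its name, was at 77.8 ± 5.29 CPM in GR-cKO and 70.1 ± 10.8 CPM in control hearts, also with overlap.

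In 4 members every GR-cKO library was below every control: Mrpl52, Mrpl34, Mrps22 and Mrpl27. Among all tested genes 5.27% had this ordering. Mrpl52, a mitochondria-specific large subunit protein, was at 69.7, 72.2 and 65.8 CPM in GR-cKO hearts and at 75.6, 86.1 and 79.4 CPM in controls, with a log2 fold change of -0.21 (SE 0.113, adjusted p = 0.998, edgeR). Mrpl34, a small basic protein with a bacterial counterpart, was at 86.1, 88.6 and 85.6 CPM in GR-cKO hearts and at 91.2, 115 and 96.4 CPM in controls, with a log2 fold change of -0.22 (SE 0.117). For both genes the GR-cKO libraries lay close together and the highest control was replicate 2.

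Other members with small p in the lower direction overlapped between the groups. Mrps14, a protein of the head of the small subunit, was at 34.8, 46.4 and 33.9 CPM in GR-cKO hearts and at 45.7, 48.0 and 45.4 CPM in controls, so that GR-cKO replicate 2 was level with the controls and the other 2 were below them. Mrps31 was at 25.7, 22.2 and 21.4 CPM in GR-cKO hearts and 28.7, 31.0 and 23.8 CPM in controls. Mrpl45, which lies at the tunnel exit and ties the ribosome to the inner membrane, was at 70.8, 80.5 and 58.5 CPM in GR-cKO hearts and at 78.7, 78.2 and 84.4 CPM in controls, where the low value of GR-cKO replicate 3 carried the log2 fold change of -0.20, which was -0.09 without it.

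Several members are known from human mitochondrial disease, and the values of 4 follow. Mrpl3 and Mrpl44, whose mutations cause hypertrophic cardiomyopathy in humans, were at 77.1 ± 9.10 and 42.9 ± 7.92 CPM in GR-cKO hearts, against 80.5 ± 1.74 and 46.2 ± 2.74 CPM in controls (SD, n = 3 each). Their log2 fold changes were -0.06 (SE 0.117) and -0.11 (SE 0.144). Mrps16, mutated in fatal lactic acidosis of newborns, was at 73.4 ± 5.95 CPM in GR-cKO and 70.7 ± 4.91 CPM in control hearts. Mrps34, mutated in Leigh syndrome, was at 75.7 ± 8.42 CPM in GR-cKO and 68.9 ± 5.85 CPM in control hearts, and exons of Mapk8ip3 and Nme3 overlap its last 500 bases. The groups overlapped in all 4, and none passed the threshold.

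Mrps12 and Mrps5, small subunit proteins known for their part in decoding, overlapped between the groups as well, as did Mrps18c and Mrps30. Mrps12 was at 60.7 ± 9.23 CPM in GR-cKO and 59.1 ± 4.40 CPM in control hearts, and Mrps5 was at 83.0 ± 8.78 CPM in GR-cKO and 82.9 ± 1.94 CPM in control hearts (SD, n = 3 each). Mrps18c, the paralog that stands in the place of the bacterial protein, was at 41.1 ± 2.55 CPM in GR-cKO and 43.6 ± 9.42 CPM in control hearts. Mrps30, a further large subunit protein with a small subunit name, was at 33.1 ± 2.29 CPM in GR-cKO and 32.9 ± 0.696 CPM in control hearts.

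The lowest values of several members came from 1 heart. GR-cKO replicate 3 held 6 members that were at least 1.5-fold below each of the other 5 libraries, and no other library held any. These were Mrpl27, Mrps21, Mrpl9, Mrps22, Mrps36 and Mrps18b, of which Mrpl27 and Mrps21 were singled out after their values were seen. Over all tested genes 4.54% were that far below in GR-cKO replicate 3, and 1.72% to 2.62% in each of the other libraries. In the same heart 23 of the 77 members (29.9%) had their lowest value and 18 (23.4%) their highest, where the shares over all tested genes were 22.0% lowest and 23.02% highest.

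Mrpl27, whose bacterial counterpart reaches into the peptidyl transferase centre, was at 29.3, 30.2 and 10.3 CPM in GR-cKO hearts and at 35.8, 31.4 and 33.4 CPM in controls. Its log2 fold change of -0.53 (SE 0.382) became -0.17 without GR-cKO replicate 3. Mrps22, a mitochondria-specific small subunit protein mutated in human cardiomyopathy with muscle weakness, was at 12.8, 12.3 and 6.72 CPM in GR-cKO hearts and at 13.5, 13.8 and 13.5 CPM in controls. Its log2 fold change of -0.36 became -0.12 without that heart. Mrpl9, at 22.5, 18.5 and 11.7 CPM in GR-cKO hearts and 19.8, 24.8 and 22.3 CPM in controls, had -0.34 with it and -0.12 without it.

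The same library stood apart in other measures. Gm42418, a transcript that overlaps ribosomal RNA sequence, took 10.9% of its mouse reads and 5.47% to 7.69% of those in the other libraries. The 8 genes of cycling cells summed to 430, 370 and 234 CPM in the GR-cKO hearts and to 384, 393 and 356 CPM in controls. Control replicate 2 held the highest value of 26 of the 77 members (33.8%), against 17.9% of all tested genes. It also had the highest level of Ucp1, the uncoupling protein of brown fat, at 89.3 CPM, with 0 to 18.8 CPM elsewhere. The brown fat markers, 5 of 6 of which were tested, summed to 1892, 1934 and 2169 CPM in GR-cKO hearts and 2072, 2408 and 2034 CPM in controls, and Elovl3 was at or near 0. Most of this sum was Cox7a1 and Cox8b, which heart muscle expresses too, so the sum is not specific to brown fat. The sum was also highest in control replicate 2, and how far it follows brown fat was not tested. Cox7a1 averaged 810 ± 33.0 CPM in GR-cKO and 892 ± 31.5 CPM in control hearts, and Cox8b averaged 1021 ± 115 CPM in GR-cKO and 1097 ± 112 CPM in control hearts (SD, n = 3 each). The part of these measures in the members' values was not tested.

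**Figure D3:**
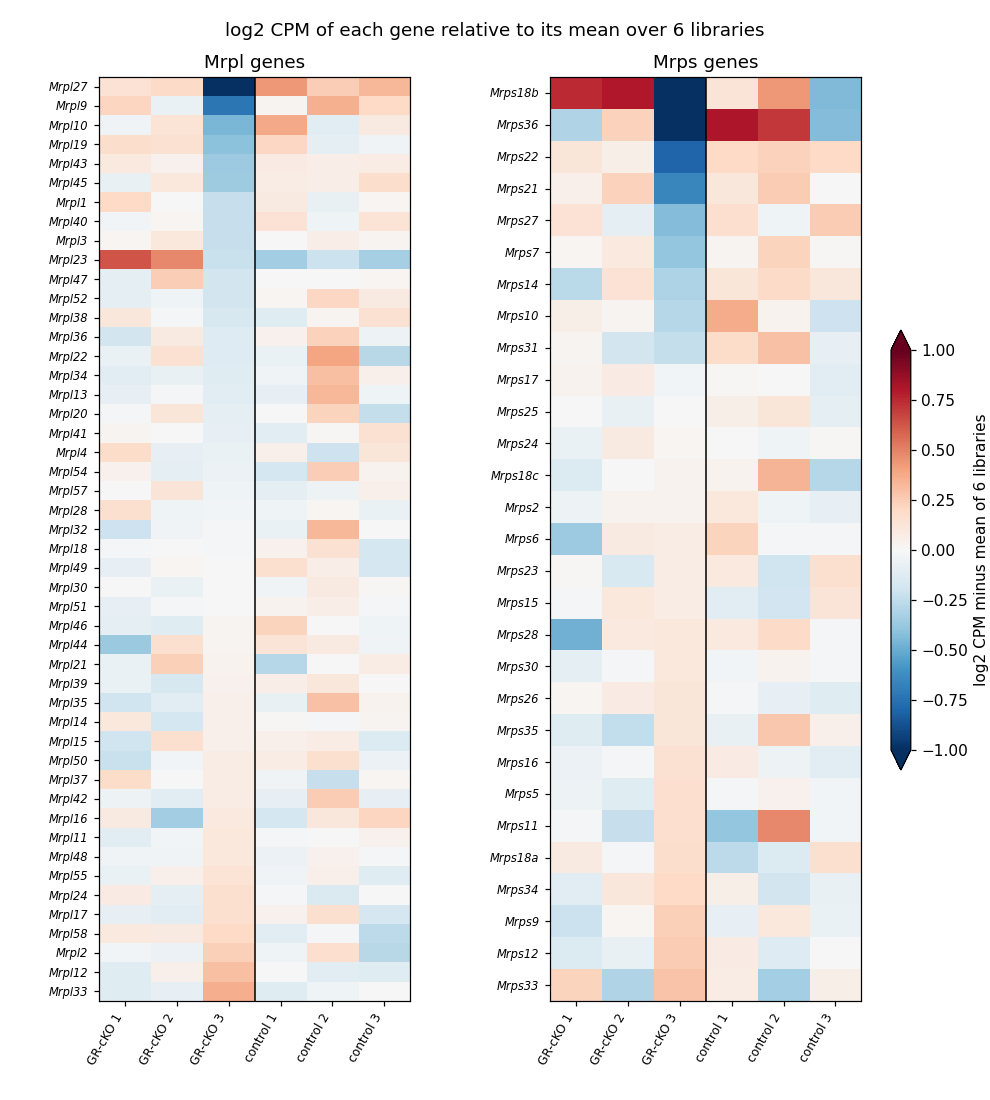
Heat map of the log2 CPM of each tested gene minus its mean over the 6 libraries, with GR-cKO libraries left of the black line and controls right of it, and genes sorted by GR-cKO replicate 3. Blue is below and red above the gene's mean, the colours end at 1 in either direction, and the darkest blue cells, Mrpl27, Mrps36 and Mrps18b among them, are in the column of GR-cKO replicate 3.

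Summed over all 78 genes, the members took 0.516 ± 0.0325% of mouse reads in GR-cKO hearts and 0.536 ± 0.0141% in control hearts (SD, n = 3 each). The values per heart were 0.513%, 0.549% and 0.485% in GR-cKO and 0.532%, 0.551% and 0.524% in controls, so the groups overlapped. Set against spike-in reads in place of mouse reads, the difference of the means turned round, with 0.290 ± 0.0439 member reads per spike-in read in GR-cKO and 0.284 ± 0.0158 in control hearts. The Mrpl genes took 0.362 ± 0.0231% of mouse reads in GR-cKO and 0.375 ± 0.0125% in control hearts. The Mrps genes took 0.154 ± 0.0102% in GR-cKO and 0.161 ± 0.00243% in control hearts. In CPM, the Mrpl genes summed to 3619, 3638 and 3738 in GR-cKO hearts and to 3650, 3839 and 3623 in controls. The Mrps genes summed to 1484, 1569 and 1626 CPM in GR-cKO hearts and to 1602, 1600 and 1565 CPM in controls. GR-cKO replicate 3 had the lowest shares of mouse reads but the highest of the GR-cKO values in both CPM sums. Gm42418 took 10.9% of its mouse reads, and the part of this was not tested.

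The ratio of Mrpl to Mrps reads does not depend on scaling between libraries, because it is formed within each heart. It goes by name, so Mrps18a, Mrps30 and Mrps36 count with the Mrps genes, and it is not an exact ratio of the subunits. Reads of Mrpl genes over reads of Mrps genes gave 2.44, 2.32 and 2.30 in GR-cKO hearts and 2.28, 2.40 and 2.31 in controls. The means were 2.35 ± 0.0758 in GR-cKO and 2.33 ± 0.0622 in control hearts, and the difference was within the spread of either group.

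**Figure D4:**
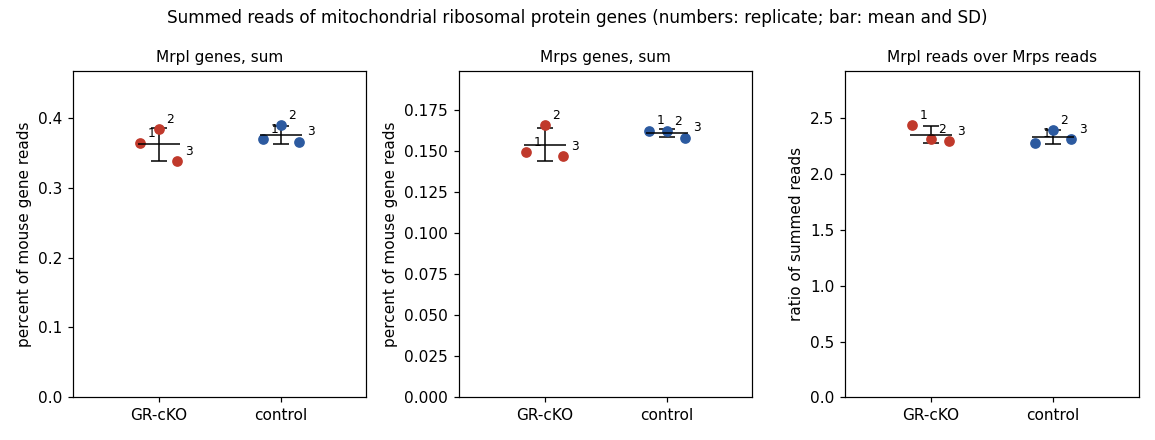
Summed reads of the Mrpl genes and of the Mrps genes as a percentage of mouse gene reads, and the ratio of these sums, in each GR-cKO and control library (numbered by replicate), with bars for the mean and SD of 3 libraries and axes from 0. The groups overlap in all 3 panels, and the ratio lies between 2.28 and 2.44 in every heart.

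Many members share their start region with a second gene. For 33 of the 78, or 42.3%, the start of another protein-coding gene lay head to head within 1000 bases on the opposite strand, against 2356 of 21819 protein-coding genes, or 10.8%. The partners included further genes of mitochondrial function: Twnk, the helicase of mitochondrial DNA, beside Mrpl43, Sars2, a mitochondrial tRNA synthetase, beside Mrps12, and the complex I subunits Ndufs6 and Ndufb5 beside Mrpl36 and Mrpl47. In 1 case both partners are members, Mrpl46 and Mrps11, a large and a small subunit gene on chromosome 7. None of the tested partners passed the threshold.

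Several partners at a shared start region had unlike levels. Ndufb5 averaged 817 ± 24.3 CPM in GR-cKO and 914 ± 81.1 CPM in control hearts, and its partner Mrpl47 averaged 30.7 ± 4.97 CPM in GR-cKO and 30.9 ± 0.186 CPM in control hearts (SD, n = 3 each). Psma2, a proteasome subunit, averaged 314 ± 16.4 CPM in GR-cKO and 334 ± 19.6 CPM in control hearts, and Mrpl32, a large subunit protein with a bacterial counterpart, averaged 29.5 ± 2.13 CPM in GR-cKO and 33.5 ± 5.10 CPM in control hearts. Ptcd2, an RNA-binding protein of mitochondria, averaged 94.6 ± 7.02 CPM in GR-cKO and 90.5 ± 3.31 CPM in control hearts, and Mrps27, itself a protein with the same kind of RNA-binding repeats, averaged 13.0 ± 2.57 CPM in GR-cKO and 15.3 ± 1.598 CPM in control hearts. Mrpl46 and Mrps11 were alike in level. Mrpl46 averaged 32.1 ± 1.74 CPM in GR-cKO and 35.2 ± 3.49 CPM in control hearts, and Mrps11 averaged 32.4 ± 4.47 CPM in GR-cKO and 34.3 ± 10.6 CPM in control hearts.

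Promoter windows of 3 such shared start regions are shown because they carry letters of motifs known from genes of mitochondrial function. They are RefSeq windows on GRCm38.p6, from 250 bases before to 50 bases after the member's start, 5′ to 3′ on the member's strand: Mrpl32 at chr13:14612988-14613287 (minus strand), Mrps27 at chr13:99344536-99344835 (plus strand) and Mrps11 at chr7:78782881-78783180 (plus strand). Capitals mark matches, on either strand, to the letters of NRF1 (GCGCATGCG), of the ETS family that includes GABPA (CCGGAAGT) and of YY1 (AAGATGGCG). Mrpl32 holds NRF1 letters at 2 places, Mrps27 holds ETS and then YY1 letters, and Mrps11 holds YY1 letters on the opposite strand.
Mrpl32: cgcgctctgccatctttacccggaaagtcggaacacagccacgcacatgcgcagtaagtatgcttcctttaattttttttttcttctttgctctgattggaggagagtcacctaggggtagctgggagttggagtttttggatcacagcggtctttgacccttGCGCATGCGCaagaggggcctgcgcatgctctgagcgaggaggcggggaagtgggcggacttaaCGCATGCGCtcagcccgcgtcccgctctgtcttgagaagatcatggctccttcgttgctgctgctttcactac
Mrps27: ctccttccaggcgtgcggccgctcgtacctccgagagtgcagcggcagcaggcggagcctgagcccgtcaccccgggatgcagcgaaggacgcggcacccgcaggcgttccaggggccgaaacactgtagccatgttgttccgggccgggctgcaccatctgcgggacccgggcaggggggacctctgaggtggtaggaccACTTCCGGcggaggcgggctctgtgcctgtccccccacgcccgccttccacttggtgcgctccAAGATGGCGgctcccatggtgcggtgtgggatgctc
Mrps11: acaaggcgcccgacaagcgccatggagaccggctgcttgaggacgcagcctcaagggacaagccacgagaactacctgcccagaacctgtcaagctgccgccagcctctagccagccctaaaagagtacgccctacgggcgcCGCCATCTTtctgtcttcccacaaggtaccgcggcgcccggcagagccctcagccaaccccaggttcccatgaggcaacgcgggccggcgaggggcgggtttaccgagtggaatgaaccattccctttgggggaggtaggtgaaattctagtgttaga

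In RefSeq 69 of the 78 members had a promoter window, 75 windows in all, and each motif was searched on both strands. Windows of the same gene can overlap, as those of Mrpl2 and Mrps16 do, so counts of windows can hold the same site more than once. NRF1 letters were in 7 member windows (9.33%) and in 1.75% of all 32851 windows. ETS letters were in 12 (16%) and in 3.89% of all windows, and YY1 letters in 8 (10.7%) and in 1.40% of all windows. Member windows were rich in CG, with a median of 21 CG dinucleotides against 7 in all windows. Among all windows with at least 15.5 CG dinucleotides, the lower quartile of the members, the shares were 4.31% for NRF1, 8.46% for ETS and 3.33% for YY1. The members' own shares cover all 75 of their windows, also those under this bound, and so are not matched to the CG-rich ones.

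Motifs of further factors were searched in the same way. The 6 letters AGAACA are a half-site of the glucocorticoid receptor and short enough to occur often. They were in 10 member windows (13.3%), in 19.0% of all windows and in 8.37% of the CG-rich ones. Among the 10 the same site of Mrpl2 is counted more than once, because the windows of that gene overlap. The letters of oestrogen-related receptors (TCAAGGTCA) were in 0 of the 75 member windows and in 0.423% of all windows. Those of SP1 (GGGCGG) were in 39 (52%), against 35.7% of all windows and 77.7% of the CG-rich ones. Here too the members' shares cover all 75 windows, also those under the CG bound. A match of letters describes the sequence only and is not a binding site.

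The regulators that go with these motifs were measured too. Nrf1 was at 24.9 ± 5.65 CPM in GR-cKO and 23.2 ± 1.58 CPM in control hearts, and Gabpa at 20.8 ± 2.51 CPM in GR-cKO and 22.3 ± 2.95 CPM in control hearts (SD, n = 3 each). Yy1 was at 58.2 ± 2.53 CPM in GR-cKO and 57.6 ± 0.874 CPM in control hearts. Ppargc1a, the coactivator that drives mitochondrial biogenesis, was at 163, 155 and 206 CPM in GR-cKO hearts and at 172, 185 and 192 CPM in controls. Esrra, an oestrogen-related receptor active in heart muscle, was at 118 ± 11.2 CPM in GR-cKO and 123 ± 13.9 CPM in control hearts, and Myc at 1.46 ± 0.582 CPM in GR-cKO and 1.33 ± 0.604 CPM in control hearts. All of these overlapped between the groups.

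Of the 12 nuclear regulators of mitochondrial genes listed, 0 passed the threshold, 6 were higher and 6 lower, and 2 had an unadjusted p under 0.05. Ppargc1b, a relative of Ppargc1a, was at 97.4, 100.1 and 114 CPM in GR-cKO hearts and at 92.7, 77.2 and 80.3 CPM in controls, above them in every library. Its log2 fold change was 0.32 (SE 0.118, adjusted p = 0.998, edgeR). Esrrb, an oestrogen-related receptor, averaged 8.98 ± 1.79 CPM in GR-cKO and 12.6 ± 2.13 CPM in control hearts (SD, n = 3 each) and was below the controls in every library, with a log2 fold change of -0.49 (SE 0.222). Each ordering held for 1 of the 12, against 4.7% of all tested genes above and 5.27% below.

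Genes that act with the mitochondrial ribosome gave 0 calls as well. Of 5 further ribosomal proteins with other names, 3 were higher and 2 lower, with a median log2 fold change of 0.04. Dap3, of the small subunit, was at 56.7 ± 3.29 CPM in GR-cKO and 59.4 ± 0.920 CPM in control hearts, and Gadd45gip1, of the large subunit, at 60.2 ± 1.19 CPM in GR-cKO and 64.6 ± 6.87 CPM in control hearts (SD, n = 3 each). Ptcd3, an RNA-binding small subunit protein, was at 10.55 ± 2.18 CPM in GR-cKO and 9.38 ± 3.07 CPM in control hearts.

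Of 25 assembly factors, 17 were higher and 8 lower, with a median log2 fold change of 0.09. Mettl15, which methylates the small mitochondrial ribosomal RNA, was the only one with an unadjusted p under 0.05. It was at 9.77, 9.01 and 10.1 CPM in GR-cKO hearts and at 12.1, 13.5 and 13.0 CPM in controls, below them in every library (log2 fold change -0.42, adjusted p = 0.998, edgeR). Of the 25, 1 gene had this ordering and 1 the reverse, against 5.27% and 4.7% of all tested genes. Trub2, a pseudouridine synthase that acts on mitochondrial RNA, was at 21.5, 26.1 and 26.3 CPM in GR-cKO hearts and at 23.7, 18.1 and 17.0 CPM in controls, with overlap in replicate 1 of each group.

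Of the translation factors, 3 of 15 tested were higher and 12 lower in GR-cKO, with a median log2 fold change of -0.14, and none had an unadjusted p under 0.05. In 2 of the 15 every GR-cKO library was below every control, against 5.27% of all tested genes. Mrrf, which recycles ribosomes, was at 21.9 ± 1.76 CPM in GR-cKO and 26.7 ± 4.75 CPM in control hearts. Mtif2, the initiation factor that brings the first tRNA, was at 25.8, 22.8 and 13.4 CPM in GR-cKO hearts and 29.1, 24.9 and 24.0 CPM in controls, again with its low value in GR-cKO replicate 3. Tufm, the elongation factor, was at 39.8 ± 6.41 CPM in GR-cKO and 42.7 ± 2.90 CPM in control hearts, and Lrpprc, which stabilises mitochondrial mRNAs, at 118 ± 27.2 CPM in GR-cKO and 136 ± 33.4 CPM in control hearts (SD, n = 3 each).

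Of the 20 mitochondrial tRNA synthetases and amidotransferase subunits, 8 were higher and 12 lower, with a median of -0.08. Iars2, which charges the isoleucine tRNA, was at 79.1, 67.1 and 71.1 CPM in GR-cKO hearts and at 81.9, 86.1 and 79.5 CPM in controls, all GR-cKO libraries below all controls. Gatb, an amidotransferase subunit needed for the glutamine tRNA, had the same ordering, with 15.2 ± 1.32 CPM in GR-cKO and 17.7 ± 0.590 CPM in control hearts (SD, n = 3 each). These 2 of the 20 stand against 5.27% of all tested genes. Neither passed the threshold.

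Genes that copy and transcribe mitochondrial DNA had 3 of 8 higher and 5 lower, with a median of -0.16. Tfam, which packs mitochondrial DNA and starts its transcription, was at 40.0, 39.7 and 35.1 CPM in GR-cKO hearts and at 43.2, 47.1 and 42.6 CPM in controls, below them in every library (log2 fold change -0.21, SE 0.128, adjusted p = 0.998, edgeR). Twnk was at 21.8, 16.9 and 21.6 CPM in GR-cKO hearts and at 25.4, 23.9 and 23.5 CPM in controls, also below in every library. In all, 3 of the 8 genes had this ordering, against 5.27% of all tested genes. Polrmt, the RNA polymerase of mitochondria, was at 19.7 ± 2.56 CPM in GR-cKO and 17.3 ± 2.58 CPM in control hearts, and Tefm, its elongation factor, at 11.5 ± 1.87 CPM in GR-cKO and 8.58 ± 1.01 CPM in control hearts (SD, n = 3 each), with overlap in both.

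The mitochondrial genome, whose mRNAs these ribosomes translate, took 6.51 ± 0.240% of mouse reads in GR-cKO and 7.01 ± 0.105% in control hearts (SD, n = 3 each). The values per heart were 6.77%, 6.47% and 6.29% in GR-cKO and 6.93%, 6.97% and 7.13% in controls. Every GR-cKO heart was thus below every control in this share of mouse reads, which was neither tested nor set against spike-in reads. The share covers ribosomal RNAs as well as mRNAs. In CPM, the 13 protein genes summed to 38734, 38921 and 40112 in GR-cKO hearts and to 43040, 44216 and 42761 in controls. The 2 ribosomal RNAs summed to 28490, 22356 and 29375 CPM in GR-cKO hearts and 25196, 24416 and 27674 CPM in controls. The ordering thus held for the sum of the protein genes and not for that of the ribosomal RNAs. All 8 tested protein genes of the mitochondrial genome were lower in GR-cKO, with a median log2 fold change of -0.16. Their smallest unadjusted p was 0.0701 (edgeR), and the 2 ribosomal RNAs had a median log2 fold change of 0.06. None passed the threshold, and in 0 of the 8 protein genes was every GR-cKO library below every control. Most of these mRNAs are cut from a shared precursor and are not independent of each other, and the other 5 of the 13 protein genes were at or near 0.

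**Figure D5:**
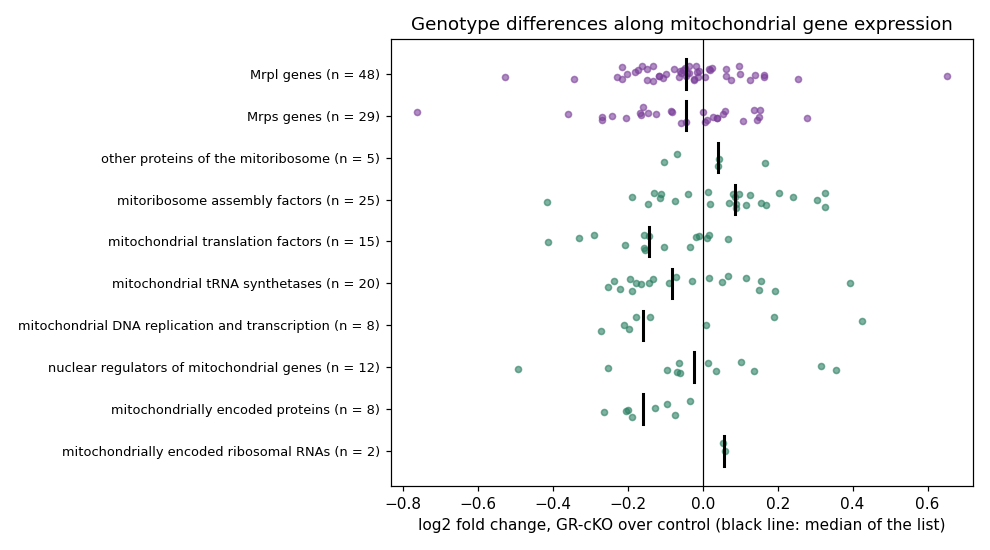
Fitted log2 fold changes (GR-cKO over control, horizontal axis) of the Mrpl and Mrps genes and of 8 lists of genes along mitochondrial gene expression, 1 point per tested gene and a black line at each list's median. Medians lie between -0.16 and 0.09, and in each list but the mitochondrially encoded ones points fall on both sides of 0.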

How the data were processed

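Counts of reads per gene were deposited by the authors for each of the 6 libraries, as whole numbers that were neither normalized nor pooled. Per the labels' protocols, the input was 100 ng of RNA per heart and the kit QuantSeq 3′ mRNA-Seq FWD. The submitters' processing notes name STAR 2.5.4a, featureCounts 1.6.2 and cutadapt 1.16, and the GRCm38 build. Neither the annotation release nor the strand setting is given in the sources used here, so a gene that overlaps another, or has pseudogene copies, has an uncertain count. Exons of another gene overlap those of 33 members.

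Symbols came from GENCODE M21 on the same build, and 52403 of 52550 mouse identifiers matched. Library sizes and tests did not include the 92 ERCC and 7 SIRV spike-in rows. Genes were filtered with filterByExpr, libraries scaled by the trimmed mean of M-values (TMM), and genotype tested over 14860 genes with the quasi-likelihood F test of edgeR 4.0.16 (R 4.3.3), all 6 libraries and no covariate, with Benjamini-Hochberg adjustment and a threshold of 0.05. CPM relate a gene's reads to the reads of all tested genes in its library, scaled by TMM, and their log2 values had 2 added as prior count. A positive log2 fold change means higher in GR-cKO. Alternatives were DESeq2 1.42.0, limma 3.58.1 voom, other scalings, no filter, covariates and leaving out each library. Intervals rest on the spread between hearts, with each gene's variance moderated by edgeR toward that of the other tested genes. They are therefore not a measure of a single gene's own spread.

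The members and lists were chosen with earlier results of these data known, so no list was tested as a whole. Named genes were Nr3c1, the 6 members of smallest p in each direction, the 3 highest and 3 lowest among Mrpl and among Mrps, members known from disease or function, the 2 of smallest p of each further list of nuclear genes, and the main regulators. Mrpl27, Mrps21, Yy1, Gm42418, Ucp1, Cox7a1, Cox8b and the head-to-head partners were named outside that rule, after their values were seen.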

Additional observations from a re-analysis of the deposited data

How the results depend on the processing

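In every alternative 0 members passed the threshold, and 0 to 3 had an unadjusted p under 0.05. Over all genes the number called was 1, against 4 with DESeq2, 2 with library totals, 10 without the filter and 1 to 2 when each library was left out in turn. The median log2 fold change of the Mrpl genes, -0.0440, was -0.0780 with library totals and 0.00346 with spike-in scaling, and -0.0757 to -0.0230 when each library was left out. That of the Mrps genes, -0.0454, ran from -0.0681 to 0.0121 when each library was left out, and was positive only without GR-cKO replicate 1. The difference in the members' summed share, -0.0203 percentage points, was 0.0109 with spike-in reads as the denominator and -0.0372 to -0.00479 when each library was left out. It was nearest 0 without GR-cKO replicate 3. The difference in the ratio of Mrpl to Mrps reads, 0.0216, ran from -0.0219 to 0.0559. The cause was not tested. Scaling moved the median of all genes to between -0.03 and 0.04. Of 31 named members, 0 to 8 changed sign in an alternative, most without GR-cKO replicate 3, and none was called in any. Libraries with the same replicate number had correlations of 0.0620, 0.0562 and 0.0144 in their deviations from the group mean. Those with unlike numbers ran from -0.0893 to 0.0294. With 3 hearts per group such correlations cannot show whether the numbers pair the hearts. With the replicate block 1 gene and 0 members were called, with medians of -0.04 for Mrpl and for Mrps. With 3 hearts per group, members under 5 CPM have wide intervals.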

Other observations

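Chromosome 11 held 11 of the 78 genes, or 14.1%, against 7.51% of all protein-coding genes. Chromosome 17 held 8, or 10.3%, against 4.75%, and chromosome 6 held 7, or 8.97%, against 5.01%. Chromosome 7, which holds the highest share of protein-coding genes at 9.20%, held 6 members, or 7.69%. Chromosomes 12, 18 and X, with 2.95%, 2.31% and 4.34% of protein-coding genes, held 0. No test of this distribution was made.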
